A study of Rattus norvegicus with 6 samples.

Results

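A set of 10 genes was followed here in cultured vascular smooth muscle (VSM) cells of the soleus feed artery (SFA), a vessel that supplies the soleus muscle. They are Atf4 and 9 genes that the ATF4 transcription factor is known to induce, and all 10 had a row among the 14475 genes counted. Members were matched to rows by gene symbol, and they were chosen with earlier results of these data known. Of these, 6 encode enzymes of asparagine, serine and mitochondrial folate metabolism (Asns, Phgdh, Psat1, Psph, Shmt2 and Mthfd2), and the other 4 are Atf4 itself and the stress genes Trib3, Ddit3 and Chac1. RNA was taken from cells of 3 young (4 months) and 3 old (24 months) male Fischer 344 rats without any mechanical stimulus stated for these samples, giving 1 library per culture. All cultures were grown in the same serum-containing medium with added glutamine. The cultures model VSM cells outside the vessel wall, and the number of passages is not stated for them.

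ATF4 is a transcription factor of the integrated stress response. When the translation factor eIF2α is phosphorylated, as during amino acid shortage, ER stress or mitochondrial stress, most translation slows while Atf4 mRNA is translated more, so the level of Atf4 mRNA is only one part of its control. ATF4 then binds response elements near genes that supply amino acids and one-carbon units, and near genes that act in prolonged stress. In smooth muscle, serine is also a source of glycine for collagen and of folate-bound carbon for nucleotide synthesis.

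The promoters of Trib3, Chac1 and Ddit3 are printed as those of stress genes that differ in age difference and in matches to the response element. Trib3 had a large age difference and a match. Chac1 had a match, and its young and old libraries overlapped. A large difference is not excluded for Chac1, since the confidence interval of its log2 fold change runs from -0.61 to 1.74. Ddit3 had a large difference and no match in the window. Each window spans 250 bases before to 50 bases after the annotated gene start in RefSeq (build GRCr8, 5′ to 3′ along the gene), which is not the build that the methods name for the counts. Capitals mark matches to TGATGNAA, the core of the C/EBP-ATF response element, searched on both strands.
Trib3 (chr3:161275484-161275783, minus strand): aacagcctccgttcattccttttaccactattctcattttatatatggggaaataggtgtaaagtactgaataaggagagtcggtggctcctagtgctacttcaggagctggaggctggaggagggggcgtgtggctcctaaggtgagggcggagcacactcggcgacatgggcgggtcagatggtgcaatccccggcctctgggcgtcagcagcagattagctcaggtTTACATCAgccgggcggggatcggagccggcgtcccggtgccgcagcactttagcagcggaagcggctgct
Chac1 (chr3:126795881-126796180, plus strand): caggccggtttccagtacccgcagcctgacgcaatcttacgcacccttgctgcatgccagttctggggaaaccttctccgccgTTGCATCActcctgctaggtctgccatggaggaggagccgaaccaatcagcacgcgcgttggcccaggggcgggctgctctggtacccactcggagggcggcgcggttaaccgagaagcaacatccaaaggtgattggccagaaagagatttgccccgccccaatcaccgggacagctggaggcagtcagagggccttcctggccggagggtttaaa
Ddit3 (chr7:65001445-65001744, plus strand): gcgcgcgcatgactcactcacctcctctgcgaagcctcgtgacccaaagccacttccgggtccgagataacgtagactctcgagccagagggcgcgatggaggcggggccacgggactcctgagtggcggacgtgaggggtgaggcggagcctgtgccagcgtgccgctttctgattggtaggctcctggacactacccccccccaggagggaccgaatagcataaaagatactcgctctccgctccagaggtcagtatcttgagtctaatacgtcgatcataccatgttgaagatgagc
Both matches read on the opposite strand of the gene. The Trib3 match lay between -21 and -14 and the Chac1 match between -167 and -160, counted from the gene start. All 10 genes had a promoter in the RefSeq table, and 2 of the 10 held the motif, namely 2 of the 4 stress genes and 0 of the 6 enzyme genes. Of the 10534 promoters of counted genes with that window, 2.07% held it. Among the ATF4 target lists described below, the motif was in 3 of 14 promoters of stress targets and partners, 2 of 5 of metabolic targets, 3 of 10 of amino acid transporters and 7 of 17 of cytosolic aminoacyl-tRNA synthetases. It was in 0 of 11 promoters of further glycine and folate enzymes, 0 of 8 of proliferation genes and 1 promoter in each of the other 4 pathway lists. A match is a run of letters, not a bound site, and windows without one do not speak to ATF4 binding elsewhere.

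Total counts per library ranged from 44235674 to 59700887, the lowest in young replicate 1. Values are given as CPM, counts scaled to a common library size after TMM normalization. Contractile VSM markers had rows for 10 of 10 genes in every library, with summed levels of 15079 to 26265 CPM in young and 5717 to 8510 CPM in old. Fibroblast markers (8 of 8) summed to 262 to 730.1 CPM in young and 1175 to 2153 CPM in old. Proliferation genes (10 of 10) summed to 490 to 772 CPM in young and 145 to 536 CPM in old. Endothelial, macrophage and Schwann cell markers had rows for 4 of 8, 3 of 7 and 3 of 6 genes, and the endothelial and macrophage sums stayed at or below 18.2 CPM in each library. The Schwann list summed to 12.5 to 75.2 CPM in young and 54.3 to 85.4 CPM in old, of which S100b was the most abundant gene. Skeletal muscle markers had rows for 3 of 8 genes, with sums of 86.2 to 264 CPM in young and 28.4 to 46.2 CPM in old. Acta1 made up most of the young sums, at 72.1 to 256 CPM in young and 5.97 to 17.6 CPM in old, whereas Tnnt3 averaged 10.7 CPM in young and 20.2 CPM in old. The defining genes Cdh5, Ptprc, Sox10 and Myod1 had no row. The part of these differences in the values below was not tested, and in bulk RNA fewer cells of a type and less RNA per cell cannot be told apart.

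Trib3 and Ddit3 were the members that differed most between old and young VSM cells, with fitted levels 2.80-fold and 2.26-fold those of young cells, and Atf4 was modestly higher. The 6 enzymes had no common direction. By the quasi-likelihood test of edgeR, 0 of the 10 genes met the criteria of a differentially expressed gene (adjusted p under 0.05 and absolute log2 fold change of at least 1), where 0.00691% of all genes did. At an unadjusted p under 0.05 there were 3 of 10 (Atf4, Trib3 and Ddit3), all higher in old, beside 11.2% of all genes in that direction. The DESeq2 Wald test, which the study used with these thresholds, called 2 of 10, Trib3 and Ddit3, beside 2.3% of all genes called upward. By limma-voom, 0 of 10 and 0 genes in all were called. For these 3 genes the old libraries lay above all young libraries, as they did for 14.5% of all genes, and for the other 7 the groups overlapped. The median log2 fold change was 0.19 over the 10 genes, 0.87 over Atf4 and the stress genes and 0.0034 over the enzymes, compared with 0.02 over all genes.

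**Figure D1:**
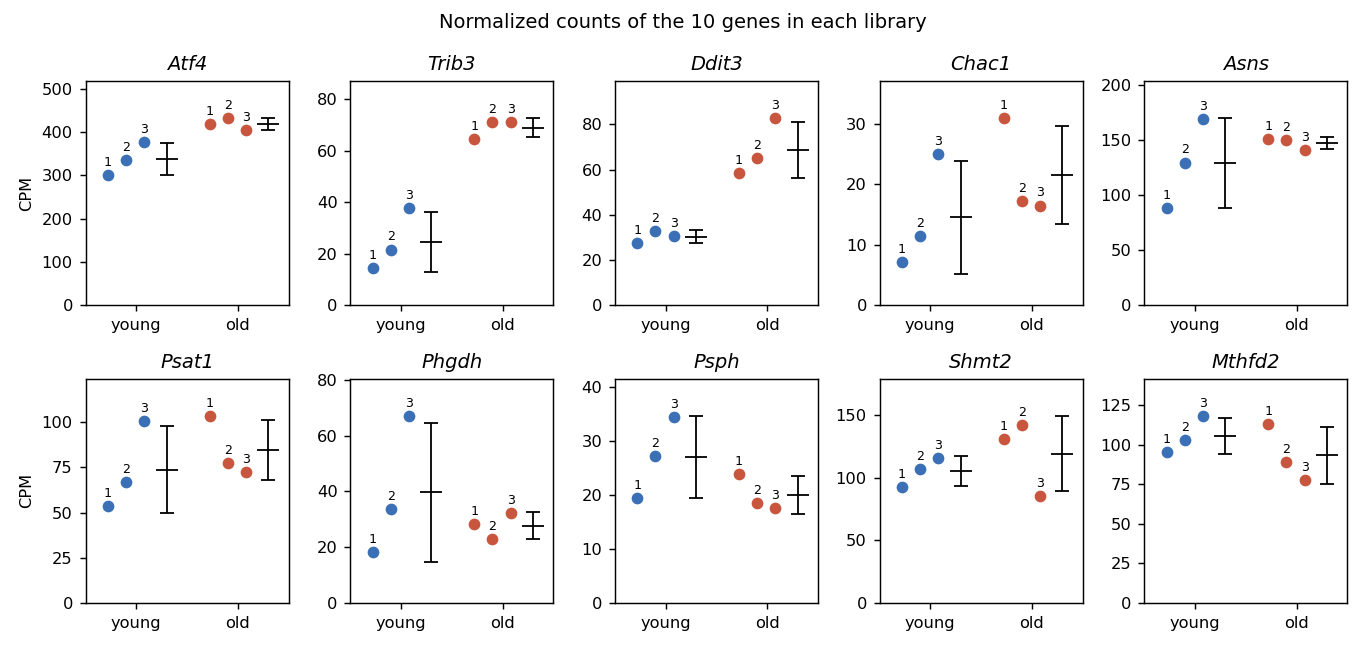
CPM of each of the 10 genes in the 6 libraries, with 1 panel per gene and a linear axis from 0. Points are libraries numbered by replicate, and the bar beside each group is its mean ± SD (n = 3). The old libraries lie above all young libraries for Atf4, Trib3 and Ddit3, while the groups overlap in the other 7 panels.

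Atf4 (ENSRNOG00000017801), the regulator itself, had 301, 336 and 376 CPM in young replicates 1, 2 and 3 and 418, 431 and 406 CPM in the old replicates. Every old value was above every young value, and the old libraries were closer together than the young ones. The means were 338 ± 37.6 CPM in young and 418 ± 12.9 CPM in old cells (mean ± SD, n = 3 each), a 1.24-fold difference. On the log2 scale this was 0.31 (standard error 0.12, 95% interval 0.03 to 0.59), with adjusted p of 0.195 in edgeR and 0.104 in DESeq2.

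Trib3 (ENSRNOG00000007319) encodes a pseudokinase that binds ATF4 and the kinase AKT. It had 14.6, 21.6 and 37.6 CPM in young cultures and 64.7, 71.0 and 71.0 CPM in old cultures. The old cultures were nearly alike, and young replicate 3, the highest young culture, remained well below them. On average 24.6 ± 11.8 CPM in young stood against 68.9 ± 3.63 CPM in old cells (mean ± SD, n = 3 each), 2.80-fold higher by the fitted value. The log2 fold change of Trib3 was 1.49 (standard error 0.33, 95% interval 0.69 to 2.28), with an adjusted p of 0.0928 in edgeR, 0.000678 in DESeq2 and 0.0713 in limma-voom. With each library left out in edgeR it ranged from 1.22 without young replicate 1 to 1.93 without young replicate 3, and the adjusted p from 0.0690 to 0.276.

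Ddit3 (ENSRNOG00000006789), which encodes the transcription factor CHOP of prolonged ER stress, had 27.5, 33.0 and 30.6 CPM in young and 58.3, 65.2 and 82.7 CPM in old libraries. Here the young cultures were close together, and the lowest old culture was well above the highest young one. Means were 30.4 ± 2.75 and 68.7 ± 12.6 CPM (SD, n = 3 each), a fitted 2.26-fold difference. By unadjusted p in edgeR, Ddit3 ranked 39 among all 14475 genes. Its log2 fold change was 1.18 (standard error 0.15, 95% interval 0.81 to 1.55), with adjusted p of 0.0531 in edgeR, 3.78e-08 in DESeq2 and 0.0524 in limma-voom. Ddit3 passed both edgeR thresholds without old replicate 1 (adjusted p = 0.0262), when 1.58% of all genes were called upward. It also passed when only genes with at least 1 CPM in at least 3 libraries were tested (adjusted p = 0.0494), when 0.262% were. Over the 6 fits that each omit 1 library, its adjusted p in edgeR ranged from 0.0262 to 0.225.

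Chac1 (ENSRNOG00000014387) encodes an enzyme that degrades glutathione, and its groups overlapped. Its young libraries had 7.20, 11.4 and 25.1 CPM and its old libraries 30.9, 17.2 and 16.5 CPM. Young replicate 3 exceeded both lower old libraries. With 14.6 ± 9.33 CPM in young and 21.6 ± 8.13 CPM in old cells (mean ± SD, n = 3 each), its log2 fold change was 0.57 (95% interval -0.61 to 1.74, edgeR adjusted p = 0.508). It rested on single libraries, since it was 1.21 without young replicate 3 and 0.21 without old replicate 1 in edgeR. Of 20 alternatives, only DESeq2 without young replicate 3 called it (adjusted p = 0.0378).

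**Figure D2:**
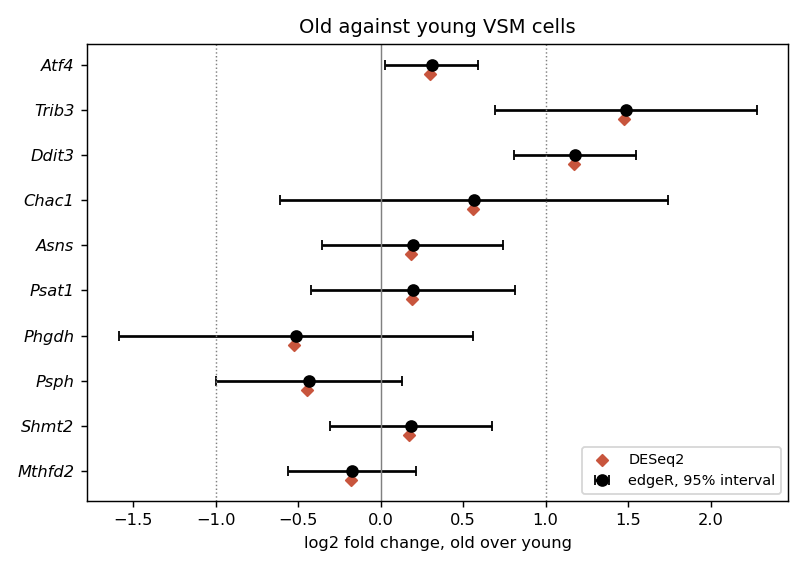
Log2 fold change of old over young VSM cells for each gene. Black points and bars are the edgeR estimate and its 95% interval, red diamonds the DESeq2 estimate, and dotted lines an absolute log2 fold change of 1. The intervals of Atf4, Trib3 and Ddit3 lie above 0 and the other 7 span it.

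Asns (ENSRNOG00000007546), asparagine synthetase, had 87.8, 130 and 169 CPM in young cultures and 151, 150 and 141 CPM in old cultures. The 3 old values fell inside the young range. The young mean was 129 ± 40.7 CPM and the old mean 147 ± 5.38 CPM (SD, n = 3 each). The log2 fold change of 0.19 had a 95% interval of -0.36 to 0.74 (edgeR adjusted p = 0.627) and was -0.023 without young replicate 1.

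The serine pathway runs from the glycolytic intermediate 3-phosphoglycerate through PHGDH, PSAT1 and PSPH in turn. Phgdh (ENSRNOG00000019328), the first step, had 18.2, 33.7 and 67.0 CPM in young and 28.4, 22.8 and 32.2 CPM in old libraries. The young range enclosed all old values. Its log2 fold change was -0.51 (95% interval -1.59 to 0.56, edgeR adjusted p = 0.510), and without young replicate 3 it was 0.095, so its direction hung on that culture. Psat1 (ENSRNOG00000013971), the aminotransferase of the second step, had 53.5, 67.1 and 101 CPM in young and 103, 77.3 and 72.4 CPM in old. One culture of each age stood at 101 to 103 CPM and the rest were lower. The log2 fold change of Psat1 was 0.20 (95% interval -0.43 to 0.82, edgeR adjusted p = 0.666), and 0.01 without young replicate 1. Psph (ENSRNOG00000000925), the phosphatase that releases serine, had 19.4, 27.2 and 34.5 CPM in young and 24.0, 18.5 and 17.5 CPM in old libraries. It was the enzyme with the lowest p and pointed downward, with young replicate 1 inside the old range. The difference was -0.44 on the log2 scale (95% interval -0.999 to 0.13, edgeR adjusted p = 0.307), and it lay between -0.63 and -0.22 with each library left out.

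The mitochondrial folate enzymes move the carbon of serine onward. SHMT2 splits serine into glycine and a folate-bound carbon unit, and MTHFD2 oxidizes that unit. Shmt2 (ENSRNOG00000008106) had 92.5, 107 and 116 CPM in young and 131, 142 and 85.4 CPM in old libraries. Both the highest values and the lowest value were in old cultures. The log2 fold change was 0.18 (95% interval -0.31 to 0.67, edgeR adjusted p = 0.607), and it lay between 0.037 without old replicate 2 and 0.37 without old replicate 3. Mthfd2 (ENSRNOG00000010833) had 95.6, 103 and 118 CPM in young and 113, 89.1 and 78.1 CPM in old libraries. Old replicate 1 lay within the young range and the other two old cultures below it. Its log2 fold change was -0.18 (95% interval -0.57 to 0.21, edgeR adjusted p = 0.534), from -0.34 without old replicate 1 to -0.061 without old replicate 3. For these 6 enzymes the data do not show that the ages are alike, since the intervals of Phgdh and Psat1, for example, reach -1.59 and 0.82.

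For Chac1 and the 6 enzymes, the fold range among young cultures was larger than the fitted fold difference between ages. A range of single libraries and a fitted difference of groups are unlike measures. For Atf4 they were nearly equal (1.25-fold and 1.24-fold), and its old libraries lay above all young ones. All 10 genes were lowest in young replicate 1 among the young libraries, and 9 of 10, all but Ddit3, were highest in young replicate 3. Of the 12257 genes with a mean of at least 1 CPM, 32.7% were lowest in young replicate 1 and 39.2% highest in young replicate 3, and 21.9% were both. This ordering was noticed after the values had been seen. From young replicate 1 to young replicate 3 the level differed 3.68-fold for Phgdh, 3.48-fold for Chac1, 2.58-fold for Trib3, 1.93-fold for Asns, 1.88-fold for Psat1, 1.25-fold for Atf4 and 1.11-fold for Ddit3. The median coefficient of variation of the 10 genes was 29.8% among young and 17.9% among old libraries, compared with 9.94% and 14.6% over the 12257 genes. For 7 of 10 genes it was larger in young, as it was for 32.5% of the 12257. Contractile markers also had their lowest young sum in young replicate 1 (15079 CPM) and their highest in young replicate 3 (26265 CPM), while fibroblast markers were in the opposite order (730.1 and 262 CPM). The part of this makeup in the spread of the 10 genes was not tested.

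**Figure D3:**
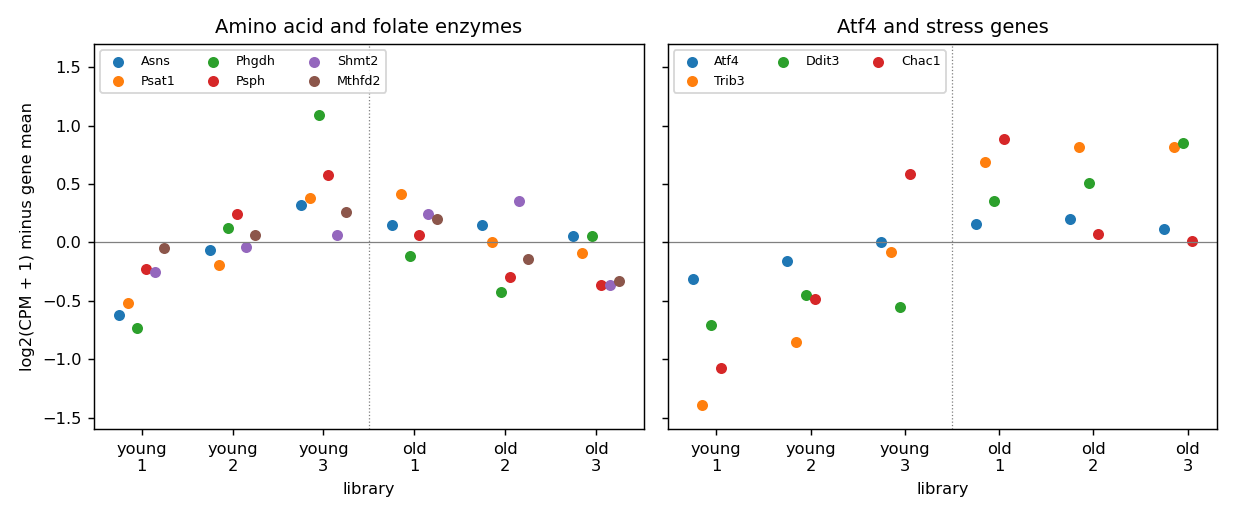
log2(CPM + 1) of each gene minus its mean over the 6 libraries, for the enzymes (left) and for Atf4 and the stress genes (right). Each colour is a gene and each column a library. The enzymes are spread around 0 in both ages with young replicate 1 low and young replicate 3 high, whereas Trib3 and Ddit3 are below 0 in each young library and above 0 in each old one.

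Counts were then set against those of Atf4 within each library, a measure that no scaling between libraries can change. Because gene lengths enter it, it is read only between ages. Trib3 had 4.84, 6.44 and 9.98 counts per 100 counts of Atf4 in the young and 15.5, 16.5 and 17.5 in the old libraries. Ddit3 had 9.13, 9.83 and 8.14 in young and 14.0, 15.1 and 20.4 in old. Both were higher in every old library, so they differed by more than Atf4 did. Psph went the other way, with 6.42, 8.11 and 9.17 counts per 100 of Atf4 in young and 5.73, 4.28 and 4.32 in old. Mthfd2 was also lower in each old library, at 31.7, 30.7 and 31.4 in young and 27.1, 20.6 and 19.3 in old. The remaining 5 overlapped. Atf4 was itself higher in each old library, which lowers the ratio of a gene that does not differ, and over all other genes 2.92% of the ratios were separated upward and 37.8% downward. The downward share of the members, 2 of 9, is thus no larger than that of genes at large. An exact permutation test of 3 libraries against 3 (two-sided) cannot give a p under 0.10, which these 4 genes reached, and adjusted over the 9 ratios that p was 0.225.

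**Figure D4:**
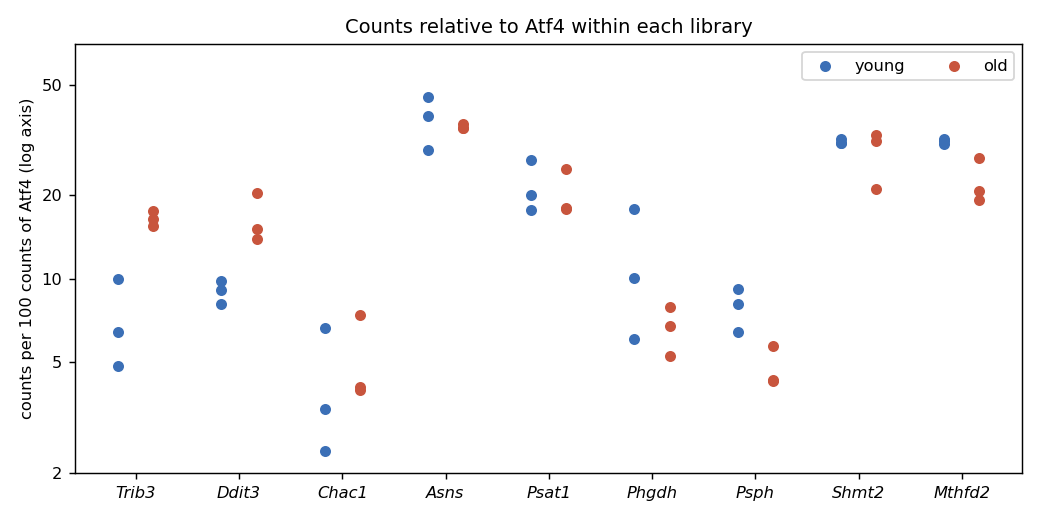
Counts of each gene per 100 counts of Atf4 in the same library, on a log axis, with young libraries in blue and old libraries in red. Trib3 and Ddit3 are separated upward in old and Psph and Mthfd2 downward, and the other 5 genes overlap.

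Likeness was measured as the root mean square difference of centred log2(CPM + 1) over the 6 libraries, where a smaller value means a closer profile. Among the members, Asns and Psat1 were closest (0.16) and Trib3 and Psph farthest apart (1.00). Among 8562 genes with a mean of at least 10 CPM, those nearest the mean profile of the 6 enzymes were Acvrl1 (0.09), the glutamine transporter gene Slc1a5 (0.09), Cnn3 (0.10), the isoleucyl-tRNA synthetase gene Iars1 (0.11) and Manea (0.11). The nearest to Atf4 were C17h6orf62 (0.05), Rpl7a (0.06) and Ccni (0.06). The single nearest gene was Ctsc for Trib3 (0.15), Slfn5 for Ddit3 (0.05) and Cth for Chac1 (0.31). Among the enzymes it was Agap1 for Asns (0.11), Eif4ebp1 for Psat1 (0.10), S1pr3 for Phgdh (0.13), Dnaaf9 for Psph (0.10), Slc10a7 for Shmt2 (0.09) and Eif2s2 for Mthfd2 (0.03). Cth, which makes cysteine, and Eif4ebp1, which encodes an inhibitor of cap-dependent translation, are in the lists of ATF4 targets, and the other 7 are in no list used here. These are descriptions over 6 cultures that share the differences among young libraries.

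Other genes that ATF4 is known to induce were taken from lists, which were also chosen with earlier results of these data known. In the list of stress targets and partners, 14 of 18 genes had a row. At an unadjusted p under 0.05, 6 of the 14 were higher and 1 lower in old (11.2% and 11.5% of all genes), edgeR called 0 and DESeq2 called 2 upward, with a median log2 fold change of 0.46. Ddit4, an inhibitor of mTORC1, had 17.8, 15.7 and 12.7 CPM in young and 67.1, 103 and 45.4 CPM in old libraries. All old cultures exceeded all young ones, and the log2 fold change was 2.22 (adjusted p = 0.0545 in edgeR and 2.26e-09 in DESeq2). Stc2, a secreted glycoprotein, had 2.79, 3.16 and 3.42 CPM in young and 28.0, 50.9 and 9.31 CPM in old libraries. The old cultures were far apart but all above the young ones, with a log2 fold change of 3.23 (adjusted p = 0.0658 in edgeR and 2.35e-07 in DESeq2). Atf5, a relative of Atf4, went from 10.7 ± 2.54 to 18.9 ± 2.11 CPM (n = 3 each, mean ± SD), a log2 fold change of 0.81 (adjusted p = 0.109 in edgeR and 0.0102 in DESeq2).

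Metabolic ATF4 targets outside the 10 genes had a median log2 fold change of 0.40, with 7 of the 8 genes in the table at a positive value. At an unadjusted p under 0.05 there were 4 higher and 0 lower, beside 11.2% and 11.5% of all genes. With both thresholds edgeR and DESeq2 called 0. The adjusted p of DESeq2 was 4.58e-05 for Gpt2, 0.00124 for Lonp1 and 0.00228 for Aldh1l2, each with an absolute log2 fold change below 1. The alanine aminotransferase gene Gpt2 had 22.0 ± 2.43 CPM in young and 35.4 ± 2.00 CPM in old cells (mean ± SD, n = 3 each) (log2 fold change 0.68, edgeR adjusted p = 0.0600). Lonp1, a mitochondrial protease, had 139 ± 6.38 and 195 ± 17.6 CPM (n = 3 each, mean ± SD, log2 fold change 0.49, edgeR adjusted p = 0.0802). Aldh1l2, a mitochondrial folate enzyme that acts downstream of MTHFD2, had 125 ± 14.2 and 192 ± 20.7 CPM (n = 3 each, mean ± SD, log2 fold change 0.62, edgeR adjusted p = 0.0822). In this list 3 of the 8 genes had old libraries above all young ones, beside the 14.5% of all genes.

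Among 11 amino acid transporters, 3 were higher and 0 lower at an unadjusted p under 0.05, beside 11.2% and 11.5% of all genes. The median was 0.04, and edgeR and DESeq2 called 0. Slc38a2, a transporter of neutral amino acids, had 648 ± 79.2 CPM in young and 970.2 ± 108 CPM in old cells (mean ± SD, n = 3 each) (log2 fold change 0.58, adjusted p = 0.113 in edgeR and 0.00569 in DESeq2). The cystine transporter gene Slc7a11 went from 7.85 ± 1.76 to 12.2 ± 2.04 CPM (n = 3 each, mean ± SD, adjusted p = 0.167 in edgeR and 0.0759 in DESeq2). The glycine transporter gene Slc6a9 went from 15.8 ± 5.35 to 29.0 ± 8.93 CPM (n = 3 each, mean ± SD, adjusted p = 0.199 in edgeR and 0.0914 in DESeq2). Of 20 cytosolic aminoacyl-tRNA synthetases, which load amino acids onto tRNA, 1 was higher and 0 were lower at that level, with a median of -0.05 and values from -0.20 to 0.37. It was Aars1, at 324 ± 43.2 CPM in young and 413 ± 22.6 CPM in old cells (mean ± SD, n = 3 each) (edgeR adjusted p = 0.190). Eprs1 and Farsa followed, with log2 fold changes of 0.37 and -0.13 (edgeR adjusted p = 0.250 and 0.339).

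The other lists concerned the neighboring enzymes and the arms of the stress response. Their counts at an unadjusted p under 0.05 stand beside 11.2% of all genes higher and 11.5% lower in old. Of 15 further glycine and folate enzymes, 2 were higher and 4 lower at an unadjusted p under 0.05, with a median of -0.04. The serine racemase gene Srr had 10.1 ± 0.383 CPM in young and 13.7 ± 1.24 CPM in old cells (mean ± SD, n = 3 each), and the cytosolic folate enzyme gene Mthfd1 52.1 ± 4.97 and 36.5 ± 5.73 CPM (n = 3 each, mean ± SD), with adjusted p of 0.120 and 0.123 from edgeR. From DESeq2 the adjusted p was 0.0189 for Srr and 0.0299 for Mthfd1. Tyms, thymidylate synthase, had a log2 fold change of -0.43 (adjusted p = 0.181 in edgeR and 0.114 in DESeq2). Of 9 aspartate, glutamate and glutamine enzymes, 2 were higher and 1 lower at that level, with a median of 0.10. Glul, glutamine synthetase, had 60.9 ± 13.6 CPM in young and 91.3 ± 18.8 CPM in old cells (mean ± SD, n = 3 each) (edgeR adjusted p = 0.189). Aspg, an asparaginase, was low, at 1.52 ± 1.19 and 5.79 ± 1.62 CPM (n = 3 each, mean ± SD, log2 fold change 1.93, edgeR adjusted p = 0.146), and was the gene of this list that DESeq2 called.

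Kinases, phosphatases and exchange factor subunits of eIF2 had 12 of 12 genes in the table, 1 higher and 2 lower at an unadjusted p under 0.05, and a median of -0.02. Eif2ak4, the GCN2 kinase that senses uncharged tRNA, had 23.0 ± 2.13 CPM in young and 30.9 ± 3.43 CPM in old cells (mean ± SD, n = 3 each) (log2 fold change 0.42, adjusted p = 0.130 in edgeR and 0.0448 in DESeq2). Eif2b2 and Eif2b3 had log2 fold changes of -0.38 and -0.30 (adjusted p = 0.159 and 0.220 in edgeR, 0.0742 and 0.187 in DESeq2). ER chaperones and other genes of the XBP1 and ATF6 arms had a median of -0.27, with 10 of 15 genes negative, 1 higher and 2 lower at an unadjusted p under 0.05. Hyou1, an ER chaperone, went from 199.9 ± 7.07 to 153 ± 11.0 CPM (n = 3 each, mean ± SD, log2 fold change -0.39, adjusted p = 0.105 in edgeR and 0.00397 in DESeq2). Creld2 had a log2 fold change of -0.48 (adjusted p = 0.219 in edgeR and 0.159 in DESeq2). Herpud1, a gene of ER-associated degradation that ATF4 also induces, went the other way, from 83.4 ± 14.7 to 132 ± 18.3 CPM (n = 3 each, mean ± SD, log2 fold change 0.66, adjusted p = 0.111 in edgeR and 0.0153 in DESeq2).

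Mitochondrial chaperones and proteases had a median of -0.10, with 1 of 10 higher and 1 lower at an unadjusted p under 0.05. Hspa9 had a log2 fold change of 0.45, Spg7 of -0.39 and Hspd1 of -0.35 (adjusted p = 0.143, 0.0823 and 0.227 in edgeR, 0.0339, 0.000842 and 0.173 in DESeq2). The 10 proliferation genes all had negative values, with a median log2 fold change of -1.31, 4 of them at an unadjusted p under 0.05 and 1 called by DESeq2. Mcm2, Pcna and Mcm5, which act at the replication fork, had log2 fold changes of -0.75, -0.77 and -1.64 (adjusted p = 0.129, 0.134 and 0.194 in edgeR, 0.0246, 0.0266 and 0.0411 in DESeq2). Old replicate 1 had a summed level of 536 CPM for this list, against 173 and 145 CPM in the other old libraries. The same library was the highest old library for Chac1, Asns, Psat1, Psph and Mthfd2 among the 10 genes. For Asns the margin was small (150.6 against 150.3 CPM in old replicate 2). This was noticed after the values were seen, and the share over all genes was not computed. The part of proliferation in the values of these genes was not tested.

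**Figure D5:**
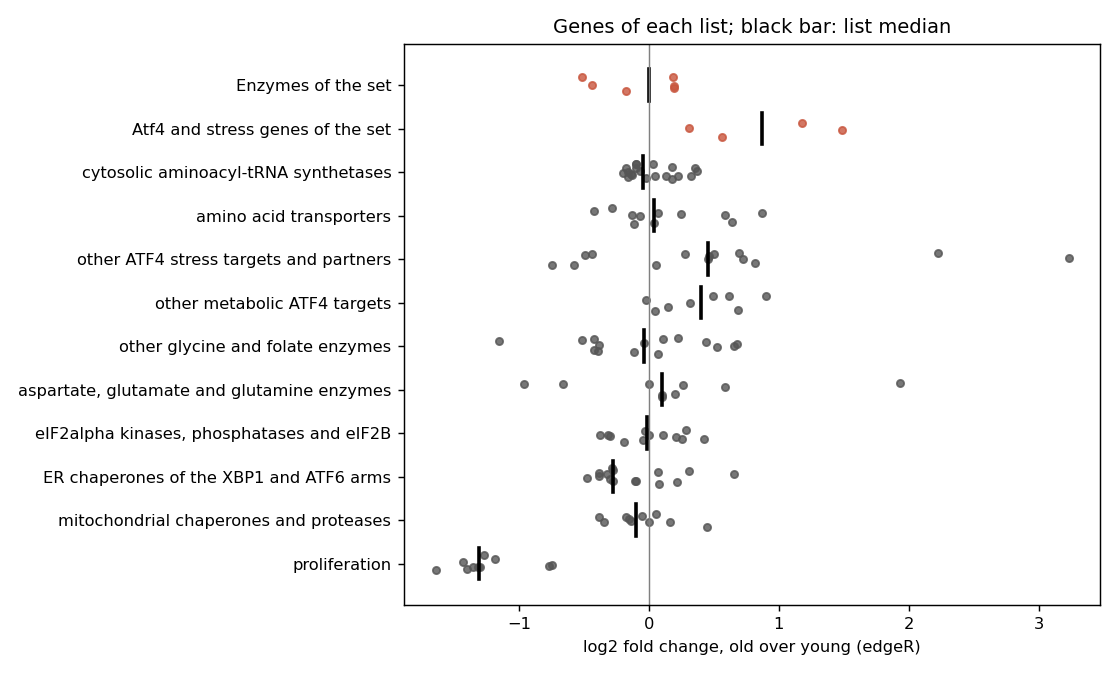
Log2 fold change of old over young from edgeR for each gene of 12 lists, with 1 point per gene, the genes of the set in red and a black bar at each list's median. Atf4 and the stress genes lie to the right of 0 with a median of 0.87, the enzymes are centred near 0 with a median of 0.0034, and proliferation genes lie to the left at a median of -1.31.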

How the data were processed

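The authors deposited raw gene counts, whole numbers per gene and library with no normalization. They trimmed reads with Cutadapt 3.5 through Trim Galore 0.6.7, aligned them with STAR 2.7.10b and counted them with featureCounts of Subread 2.0.8. The methods name the rat assembly Rnor 6.0 with a RefSeq annotation, whereas genes in the table carry Ensembl identifiers, so the annotation that was counted is uncertain. How strand, multi-mapping reads and mates were counted is not stated, and low-count genes had been removed. Even numbers made up 68.7% to 71.1% of the counts below 20, as when both mates of a pair are counted, so counting error is larger than a count implies.

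Old and young libraries were compared with edgeR 4.0.16 in R 4.3.3 (TMM, quasi-likelihood test, Benjamini-Hochberg over 14475 genes, age as the only term). Standard errors are the absolute log2 fold change over the square root of F. DESeq2 1.42.0, limma-voom (limma 3.58.1), other scalings and filters, halved counts, a replicate block and each library left out were alternatives, and DESeq2 with libraries left out was added later. The edgeR, DESeq2 and voom steps were tested on simulated data. No library repeated another of the same age group (chi-square per gene of at least 67.1), and young libraries were not checked against old ones. The members and lists were chosen with earlier results of these data known. Named genes are the 10 members, the 3 genes of lowest p in each list, and the nearest profiles. Promoters are RefSeq windows of GRCr8. Gene lengths, and so levels between genes, were not used here. The values of 1 listed gene are not reported here.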

Additional observations from a re-analysis of the deposited data

How the results depend on the processing

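Of the 10 genes, edgeR called 0 with RLE factors, library size only, filterByExpr, halved counts and the replicate block, and limma-voom called 0. edgeR called 1, Ddit3, with the filter of at least 1 CPM in at least 3 libraries, and 0 to 1 with a library left out. DESeq2 called 2 with all libraries and 2 to 3 with a library left out. At an unadjusted p under 0.05, in either direction, there were 2 to 4 members with a library left out in edgeR. In DESeq2 there were 2 to 6, with 5 without old replicate 1 and 6 without young replicate 3. The 5 included Psph (-0.60) and Mthfd2 (-0.35), lower in old, and the 6 were all higher in old. In edgeR without young replicate 1, the 4 included Phgdh (-0.86) and Psph (-0.63), lower in old. The share of all genes at that level was not computed for these fits. The count over all genes was 1 in edgeR, 65 with the 1 CPM filter, 0 in limma-voom and 805 in DESeq2, and with a library left out it ranged from 0 to 732 in edgeR, the highest without old replicate 1, while in DESeq2 it was 737, 551 and 600 without young replicates 1, 2 and 3 and 1377, 614 and 651 without old replicates 1, 2 and 3. The cause of the gap between the tools was not tested. The directions of Atf4, Trib3, Ddit3, Chac1, Psph, Shmt2 and Mthfd2 held in all 20 alternatives. Asns was -0.023 without young replicate 1 in edgeR (0.44 at the highest, without young replicate 3) and -0.031 in DESeq2, Psat1 was -0.0016 in DESeq2 without it, and Phgdh was 0.095 without young replicate 3 in edgeR (-0.86 at the lowest, without young replicate 1) and 0.092 in DESeq2. The median of the 10 genes ranged from 0.04 to 0.42. No pairing by replicate number is stated for the libraries. Deviations of same-numbered libraries correlated at 0.06, 0.30 and 0.28. Young replicates 2 and 3 correlated best with the old library of the same number, and young replicate 1 with old replicate 2 (0.33). These values cannot decide whether replicate numbers pair the libraries. With the replicate block edgeR called 1 gene in all and 0 of the 10 members, and the adjusted p of Ddit3 was 0.0804.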
